A study of Mus musculus with 4 samples.

Results

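The mitotic genes are 34 genes, chosen by name, whose products drive cells into and through mitosis: the mitotic cyclins and their kinase, the Aurora and Polo kinases, the spindle checkpoint, the centromere and kinetochore, spindle motors and the cytokinesis machinery. All 34 were measured, each under 1 Ensembl identifier found in GENCODE vM21 (GRCm38, the build of gene coordinates given here), among 32285 features in 4 spatial RNA sections of injured newborn mouse hearts. The hearts came from ICR mice of the labelled treatment cryoinjury, in which the tip of the left ventricle was touched for 5 seconds with a cooled probe on postnatal day 1. They were collected 1, 4, 7 and 14 days later (d1, d4, d7 and d14), at postnatal days 2, 5, 8 and 15. Each day had 1 section, each of 10 µm from fresh frozen tissue, and the labels name no uninjured heart. Time after injury and postnatal age therefore cannot be told apart, and neither can day and heart. Visium, the assay used, captures RNA on an array of barcoded spots, each of which covers several cells.

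In dividing cells the mitotic genes are transcribed late in the cell cycle, in G2 and mitosis, after the genes of DNA replication. In mammalian cells much of this timing is set at their promoters by the MuvB core complex, which binds the cell cycle homology region (CHR) and joins the repressive DREAM complex or, with B-Myb (Mybl2) and FoxM1, activates. NF-Y binds the CCAAT boxes of many of the same promoters. Newborn mouse heart muscle can still divide and regenerate for a short time after birth. Soon afterwards most cardiomyocytes pass through a last nuclear division without cytokinesis and leave the cell cycle, while fibroblasts, endothelial cells and macrophages of the heart can still divide.

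The promoter sequences of the 5 members with the most UMIs (unique RNA molecules counted) are shown as examples of the motifs that most, but not all, of the members' promoters held. The sequences are from RefSeq (GRCm38.p6), cover 250 bases before to 50 bases after the annotated start, and run 5′ to 3′ on the strand of the gene. They lie at chr5:30666636-30666935 (plus strand) for Cenpa, chr2:164769679-164769978 (plus) for Ube2c, chr10:69352863-69353162 (minus) for Cdk1, chr7:135716330-135716629 (minus) for Mki67 and chr11:99024140-99024439 (minus) for Top2a. Capitals mark 3 motifs searched on both strands: the CHR element (TTTGAA), the CCAAT box (CCAAT) and an E2F site (TTTNNCGC).
Cenpa: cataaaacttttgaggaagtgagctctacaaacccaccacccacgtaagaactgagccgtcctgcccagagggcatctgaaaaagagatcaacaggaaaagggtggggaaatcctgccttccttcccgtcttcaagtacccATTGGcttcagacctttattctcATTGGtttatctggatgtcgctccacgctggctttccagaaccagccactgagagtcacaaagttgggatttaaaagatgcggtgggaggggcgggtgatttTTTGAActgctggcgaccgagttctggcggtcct
Ube2c: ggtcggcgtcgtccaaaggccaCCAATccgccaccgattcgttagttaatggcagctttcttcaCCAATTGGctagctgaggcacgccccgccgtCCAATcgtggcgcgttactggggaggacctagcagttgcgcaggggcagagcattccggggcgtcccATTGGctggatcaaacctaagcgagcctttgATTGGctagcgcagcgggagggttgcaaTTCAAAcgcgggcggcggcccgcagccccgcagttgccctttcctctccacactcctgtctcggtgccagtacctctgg
Cdk1: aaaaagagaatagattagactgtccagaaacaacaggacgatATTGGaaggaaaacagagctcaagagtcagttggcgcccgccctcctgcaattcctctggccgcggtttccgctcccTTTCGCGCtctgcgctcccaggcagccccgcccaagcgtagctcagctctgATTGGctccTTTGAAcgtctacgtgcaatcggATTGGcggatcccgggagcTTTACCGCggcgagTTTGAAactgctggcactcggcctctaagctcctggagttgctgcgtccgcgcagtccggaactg
Mki67: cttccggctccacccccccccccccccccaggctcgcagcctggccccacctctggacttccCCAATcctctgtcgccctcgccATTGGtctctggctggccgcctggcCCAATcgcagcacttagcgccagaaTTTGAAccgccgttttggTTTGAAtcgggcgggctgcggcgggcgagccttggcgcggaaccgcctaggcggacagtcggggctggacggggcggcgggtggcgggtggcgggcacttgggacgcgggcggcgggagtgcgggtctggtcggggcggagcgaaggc
Top2a: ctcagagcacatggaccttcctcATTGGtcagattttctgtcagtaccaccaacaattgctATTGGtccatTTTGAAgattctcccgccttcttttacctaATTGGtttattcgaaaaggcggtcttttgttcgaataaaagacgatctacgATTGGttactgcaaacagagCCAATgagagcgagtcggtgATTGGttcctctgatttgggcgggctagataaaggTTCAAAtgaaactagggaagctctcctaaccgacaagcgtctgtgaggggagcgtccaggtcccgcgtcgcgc
Each of the 5 held at least 1 CHR element and at least 2 CCAAT boxes, and a pair of CCAAT boxes on opposite strands overlapped in the Ube2c sequence. Cdk1 also held 2 E2F sites.

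Of the 34 members, 28 had a promoter entry in RefSeq (all but Ccna2, Aurkb, Kif20a, Tpx2, Pbk and Incenp), with 30 promoters in all. The CHR element was found in 22 of the 28 members, or 80.0% of their promoters, against 17.9% of all 32851 promoters. The CCAAT box was found in 24 of the 28 members, or 86.7% of their promoters, against 37.4% of all. Both motifs stood together in 20 of the 28 members, against 6.95% of all promoters. The E2F site was found in Cdk1 and Racgap1 only, or 6.67% of the members' promoters, against 5.17% of all. These matches describe letters and are not binding sites.

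Spots with at least 500 UMIs were kept, which left 445 to 1175 spots per section, with a median depth of 7810 to 8028 UMIs at d1, d4 and d7 and of 3770 UMIs at d14. Levels are given as CPM, UMIs per 1e6 UMIs of a section without 8 haemoglobin and 13 mitochondrially encoded genes, with exact 95% intervals. Only counting error enters these intervals. Because each day had a single section without a replicate, days were not tested against each other and no p-value is given. The heart identity of the sections was plain in their markers. All 10 genes of a cardiomyocyte list (Myl2, Myh6, Actc1 and others) had UMIs in every section, with 62427 to 90995 CPM in sum, and a lung epithelium list of 6 genes had 0, 0, 1 and 2 UMIs at d1, d4, d7 and d14. The d7 section also held some skeletal muscle RNA. A skeletal muscle list of 6 genes was at 3.41, 5.13, 34.1 and 4.88 CPM on d1, d4, d7 and d14.

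The mitotic genes were highest at d4, intermediate at d7 and lowest at d14. Their summed level was 561 CPM on d1 (95% interval 535 to 587), 1739.7 CPM on d4 (1706 to 1774), 977 CPM on d7 (951 to 1003) and 159 CPM on d14 (147 to 172). These levels rest on 1809, 10171, 5440 and 685 UMIs in that order of days. All 34 members had their highest level at d4, and 32 of them followed 1 order of days from high to low, d4, d7, d1 and d14. Not every step of that order lay beyond counting error: the interval excluded 1 for all 34 between d4 and d7, for 23 between d7 and d1 and for 31 between d1 and d14. Of 9557 features with at least 158 UMIs over all sections, the fewest of any member, 48.3% were highest at d4 and 11.7% followed that full order. The other 2 members, Cenpa and Cenpf, had their lowest level at d1 instead of d14. In bulk levels of this kind, fewer cells in mitosis and less mitotic RNA per cell cannot be told apart.

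**Figure D1:**
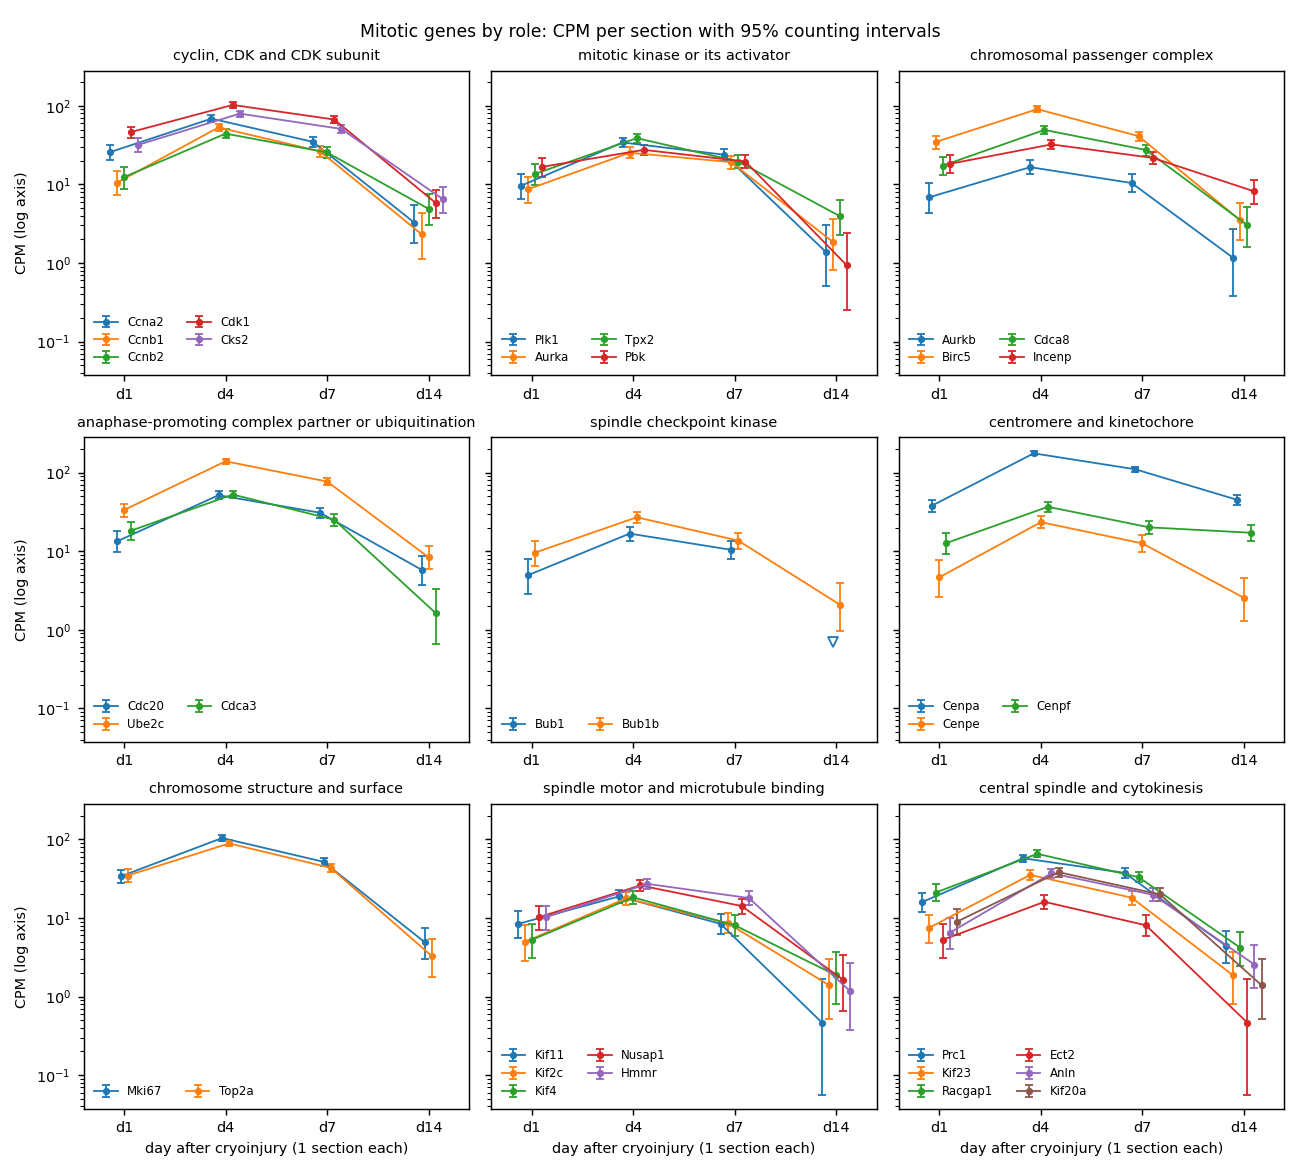
Level of each of the 34 mitotic genes in CPM (log axis) by day after cryoinjury, in 9 panels by role. Points are single sections with 95% counting intervals, and the open triangle marks Bub1 at d14, which had 0 UMIs and is drawn at the level of 3 counts. Every gene peaks at d4, and the lines of Cenpf and Cenpa drop least between d7 and d14.

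A member was called higher or lower between sections when it had at least 20 UMIs in sum, a ratio of CPM of at least 2 or at most 0.5, and an interval that excluded 1. At d4 against d1, 32 of 34 members were called higher and 0 lower, where 8.32% of 12217 features tested were called higher and 2.26% lower. The median log2 ratio of the members was 1.58, beside 0.21 over all features tested. In sum the mitotic genes were 3.10-fold higher at d4 (2.95 to 3.26). The intervals of all 34 members lay above 1. Those not called were Incenp, at 32.3 CPM at d4 and 18.3 CPM at d1 (1.77-fold, 1.31 to 2.41), and Pbk, at 27.5 CPM at d4 and 16.7 CPM at d1 (1.64-fold, 1.201 to 2.28).

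At d7 against d4, 8 of 34 members were called lower and 0 higher, where 4.55% of 12510 features were called lower and 1.58% higher. The 8 were Birc5, Ccnb1, Cdca3, Kif11, Kif2c, Kif4, Mki67 and Top2a, with ratios between 0.442 (Kif4) and 0.497 (Mki67). The other 26 members had ratios between 0.503 and 0.759, and the intervals of all 34 lay below 1. In sum the level at d7 was 0.562 times that at d4 (0.543 to 0.580), with a median log2 ratio of -0.89, beside -0.22 over all features. The count of 8 depended on the scaling: it was 0 with TMM factors, under which the median of all features was -0.01 and that of the members -0.68, and 17 with CPM over all genes.

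At d14 against d7, 33 of 34 members were called lower and 0 higher, where 6.35% of 12192 features were called lower and 6.07% higher. In sum the level at d14 was 6.14-fold lower (ratio 0.163, 0.150 to 0.176), and the median log2 ratio of the members was -3.19, beside -0.04 over all features. Cenpf was not called, at 17.2 CPM at d14 and 20.1 CPM at d7 (ratio 0.855, 0.628 to 1.16). At d7 against d1, 13 of 34 members were called higher and 0 lower, where 5.21% of 12006 features were called higher and 4.12% lower. In sum the level at d7 was 1.74-fold that at d1 (1.65 to 1.84), with a median log2 ratio of 0.66, beside -0.01 over all features. These comparisons share sections, so their calls are not independent of each other.

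**Figure D2:**
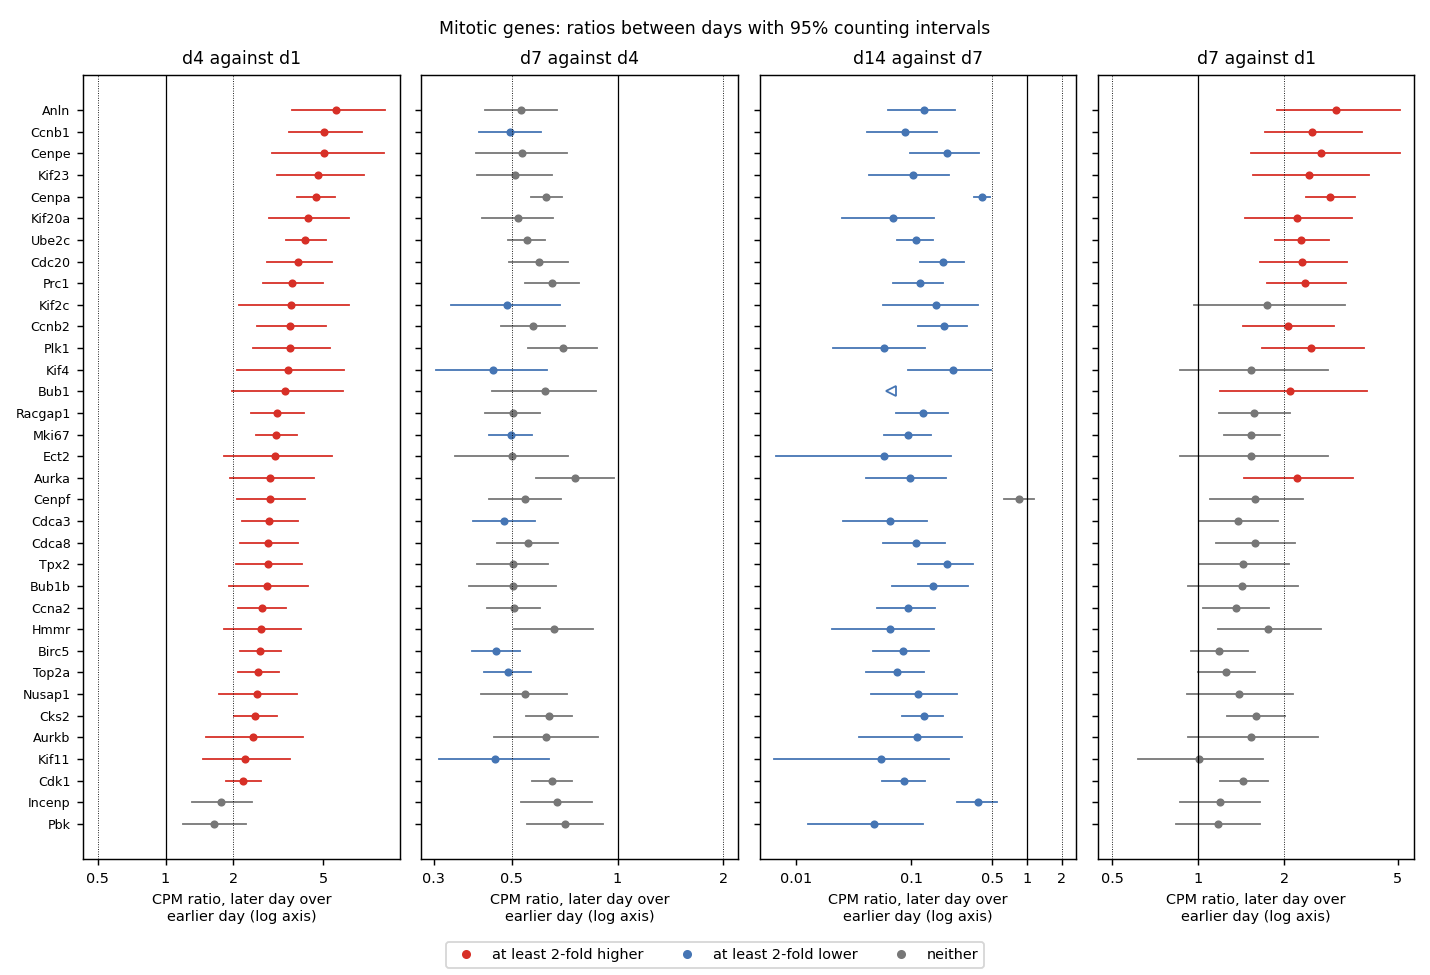
Ratio of CPM, later day over earlier day (log axis), of each mitotic gene in 4 comparisons of 2 sections each, with 95% counting intervals. Red points were called at least 2-fold higher, blue points at least 2-fold lower and grey points neither, dotted lines mark ratios of 0.5 and 2, and the open triangle is Bub1 at the floor of 3 counts. At d4 against d1, 32 genes are red, and at d14 against d7, 33 are blue.

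The kinase that drives entry into mitosis and its 4 partners were all called higher at d4 against d1 and lower at d14 against d7. Cdk1, the mitotic kinase, was at 46.5 CPM on d1, 103 on d4, 67.0 on d7 and 5.81 on d14. Ccnb1 (chr13:100778650-100786570), the cyclin that activates it, was at 10.5 CPM on d1, 53.2 on d4, 26.4 on d7 and 2.32 on d14. Ccnb1 thus differed more between d4 and d1 (5.05-fold, 3.53 to 7.42) than Cdk1 did (2.21-fold, 1.84 to 2.66), and these intervals did not overlap. Ccnb2 was 3.57-fold and Ccna2, the cyclin of S phase and early mitosis, 2.67-fold higher at d4 than at d1. Cks2, a small subunit that binds the kinase, was 2.50-fold higher. In sum the 5 genes were 2.74-fold higher at d4 than at d1 (2.47 to 3.06) and 8.98-fold lower at d14 than at d7.

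Of the other mitotic kinases and their activators, Plk1, the Polo kinase, was at 9.61 CPM on d1, 34.2 on d4, 23.9 on d7 and 1.39 on d14. Aurka, the Aurora kinase of the spindle poles, was 2.92-fold higher at d4 than at d1 and had the ratio nearest to 1 of the 34 at d7 against d4 (0.759, 0.586 to 0.980). Tpx2, which activates Aurka on the spindle, was 2.84-fold higher at d4 than at d1. Pbk, a mitotic serine/threonine kinase, had the smallest ratio of the 34 at d4 against d1 and, apart from Bub1, the smallest at d14 against d7, with 4 UMIs at d14 and 109 at d7.

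The chromosomal passenger complex corrects faulty attachments of chromosomes to the spindle. Its 4 genes were together 2.45-fold higher at d4 than at d1 (2.13 to 2.82) and 1.305-fold higher at d7 than at d1 (1.12 to 1.52), both the smallest ratios of the 9 role groups, with intervals that overlapped those of other groups. Birc5 (survivin) was at 34.7 CPM on d1, 90.8 on d4, 41.1 on d7 and 3.48 on d14. Aurkb, the kinase of the complex, and Cdca8 (borealin) were 2.43-fold and 2.85-fold higher at d4 than at d1. Incenp, its scaffold, was at 18.3 CPM on d1, 32.3 on d4, 21.7 on d7 and 8.13 on d14, and its ratio at d14 against d7 (0.374, 0.249 to 0.549) was the highest after Cenpf and Cenpa.

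Exit from mitosis requires the anaphase-promoting complex. Ube2c, the ubiquitin-conjugating enzyme that works with it, was at 33.5 CPM on d1, 139.6 on d4, 77.0 on d7 and 8.36 on d14. Cdc20, its activator, was at 13.3 CPM on d1, 51.7 on d4, 30.9 on d7 and 5.81 on d14. Both were called higher at d4 and at d7 against d1. Cdca3, described in frog extracts and human cells as part of a ubiquitin ligase for the kinase Wee1, was 2.88-fold higher at d4 than at d1 and 2.10-fold lower at d7 than at d4. The spindle checkpoint kinase gene Bub1 had 16, 98, 58 and 0 UMIs at d1, d4, d7 and d14, so it was at least 14.9-fold lower at d14 than at d7, against a floor of 3 counts in the d14 section. Its relative Bub1b (BubR1) had 31, 158, 76 and 9 UMIs.

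The 3 centromere and kinetochore genes differed from the other groups at d14. In sum their level at d14 was 0.454 times that at d7 (0.395 to 0.521), where the other 8 groups had ratios between 0.0853 and 0.157, with no interval that reached above 0.202. At d4 they were 4.26-fold higher than at d1 (3.64 to 5.00), an interval that overlapped those of the cytokinesis group (3.84-fold) and of the anaphase-promoting complex group (3.75-fold, 3.24 to 4.35). Cenpa (chr5:30666777-30674830), the histone variant that marks centromeres, was at 38.1 CPM on d1, 176 on d4, 110.4 on d7 and 45.3 on d14. Cenpf (chr1:189640606-189688086), a large kinetochore protein, was at 12.7 CPM on d1, 36.8 on d4, 20.1 on d7 and 17.2 on d14. Cenpe, the kinetochore motor, behaved otherwise on d14, with 4.65 CPM on d1, 23.4 on d4, 12.6 on d7 and 2.56 on d14. The interval of Cenpa at d14 (39.2 to 52.1 CPM) overlapped that at d1 (31.7 to 45.5 CPM), and so did those of Cenpf. Cenpa and Cenpf together gave 39.3% of the mitotic UMIs at d14 (35.6 to 43.0%), against 9.07% at d1, 12.2% at d4 and 13.4% at d7. Without these 2 genes, a choice made after their values were seen, the level at d14 was 8.76-fold lower than at d7 instead of 6.14-fold, and 5.28-fold lower than at d1 instead of 3.53-fold.

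The general marks of cycling cells, Mki67, which coats mitotic chromosomes, and Top2a, the topoisomerase that untangles them, are widely used to find proliferating cells. Mki67 was at 33.8 CPM on d1, 104 on d4, 51.9 on d7 and 4.88 on d14. Top2a was at 34.7 CPM on d1, 89.1 on d4, 43.5 on d7 and 3.25 on d14. At d7 against d1 neither was called, at 1.54-fold for Mki67 (1.23 to 1.93) and 1.25-fold for Top2a (0.996 to 1.58).

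Among the spindle motors and microtubule-binding genes, Kif11 (Eg5), which pushes the spindle poles apart, had the smallest ratio of the 34 at d7 against d1 (1.01, 0.615 to 1.68), with 47 UMIs at d7 and 27 at d1. The microtubule depolymerase gene Kif2c and the chromokinesin gene Kif4 were 3.59-fold and 3.47-fold higher at d4 than at d1. Nusap1 and Hmmr, which encode spindle-binding proteins, were 2.54-fold and 2.66-fold higher. In sum these 5 genes were 2.77-fold higher at d4 than at d1 and 1.47-fold higher at d7 than at d1 (1.19 to 1.82).

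The genes of the central spindle and cytokinesis were 3.84-fold higher at d4 than at d1 in sum (3.32 to 4.46) and 2.10-fold higher at d7 than at d1 (1.80 to 2.45). Anln (chr9:22332012-22389188), the contractile ring protein anillin, had the largest ratio of the 34 in both of these comparisons, within counting error of the next (Ccnb1 at d4 against d1, Cenpa at d7 against d1). It was at 6.51 CPM on d1, 37.1 on d4, 19.8 on d7 and 2.56 on d14, which is 5.70-fold at d4 against d1 (3.64 to 9.40) and 3.03-fold at d7 against d1 (1.89 to 5.10). Kif23 and Racgap1, which form the centralspindlin complex, were 4.76-fold and 3.12-fold higher at d4 than at d1. Prc1, which bundles the central spindle, was 3.64-fold higher, Kif20a, a motor of the central spindle, 4.26-fold higher and Ect2, the activator of RhoA at the cleavage furrow, 3.05-fold higher. Of the 13 members called higher at d7 against d1, 4 were cytokinesis genes (Anln, Kif23, Prc1 and Kif20a). The others called were Ccnb1, Ccnb2, Plk1, Aurka, Cdc20, Ube2c, Bub1, Cenpa and Cenpe. Of the 4 passenger complex genes and the 5 spindle motor and microtubule genes, 0 were called, where 5.21% of all features were. In groups this small, 0 called does not differ from that share. Hmmr (1.75-fold) and Kif2c (1.74-fold) had higher ratios than the cytokinesis genes Racgap1 (1.57-fold) and Ect2 (1.53-fold), also not called. Of the 34 members, 8 (Ccna2, Cdc20, Kif20a, Ube2c, Nusap1, Prc1, Cdca8 and Kif4) overlap a protein-coding gene on the opposite strand, and their counts are uncertain to the extent that counting did not use strand.

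The members were set beside lists of related genes taken by function. Of all features tested, 8.32% were called higher and 2.26% lower at d4 against d1, and 1.58% higher and 4.55% lower at d7 against d4. The shares were 6.07% higher and 6.35% lower at d14 against d7, and 5.21% higher and 4.12% lower at d7 against d1. Of 56 other mitotic genes (kinetochore, condensin and spindle genes such as Bub3, Smc4 and Ckap5), 37 were called higher and 0 lower at d4 against d1, and 50 were called lower and 0 higher at d14 against d7. All 56 were highest at d4, and 43 followed the order d4, d7, d1 and d14. Of features with at least 158 UMIs, 48.3% were highest at d4 and 11.7% followed that order. Of 45 DNA replication genes, 0 were called higher or lower at d4 against d1, with a summed ratio of 1.11 (1.08 to 1.15). At d7 against d1, 5 of the 45 were called lower (Mcm5, Cdt1, Cdc45, Gins1 and Rfc5, named after their values were seen) and 0 higher. Of the 45, 33 were highest at d4, and 3 followed the full order of the mitotic genes, beside the same 48.3% and 11.7% of features. At d7 against d4, 11 replication genes were called lower, and at d14 against d7, 36 were.

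The replication genes thus started from a high level at d1, where the mitotic genes did not. Pcna, the sliding clamp of DNA polymerase, was at 139 CPM on d1, 161 on d4, 117 on d7 and 51.3 on d14, and Rrm2, a subunit of ribonucleotide reductase, at 75.7, 123, 47.4 and 6.27 CPM on the same days. For each UMI of the replication list there were 0.343 mitotic UMIs on d1 (0.325 to 0.362), 0.958 on d4 (0.932 to 0.984), 0.926 on d7 (0.892 to 0.961) and 0.403 on d14 (0.368 to 0.440). The ratio of the lists at d4 and d7 therefore lay apart from that at d1 and d14 beyond counting error. The order of d1 and d14 rests on Cenpa and Cenpf. Without these 2 genes, 416 mitotic UMIs stood beside 1701 replication UMIs at d14, and 1645 beside 5269 at d1.

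**Figure D3:**
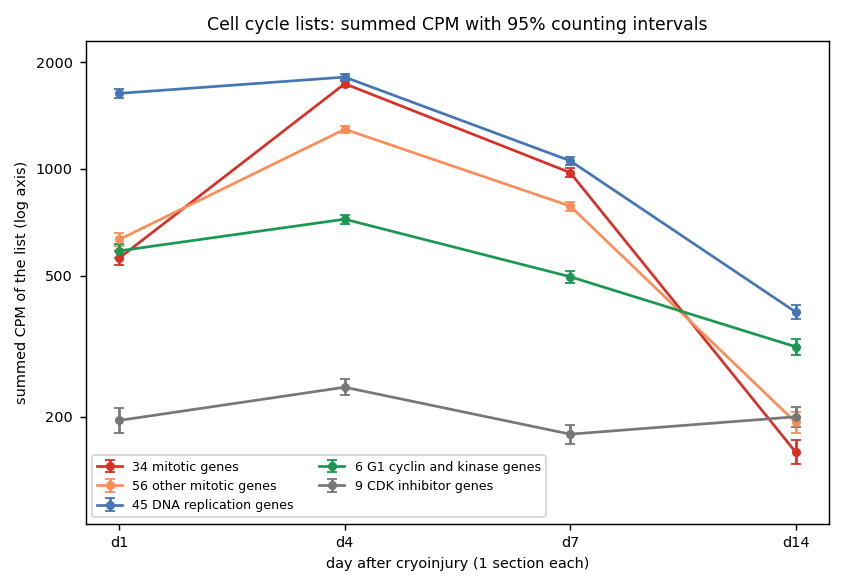
Summed CPM (log axis) of 5 cell cycle lists by day after cryoinjury, 1 section each, with 95% counting intervals. The mitotic genes are at 561, 1739.7, 977 and 159 CPM, the replication genes at 1634, 1816, 1055 and 395 CPM.

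Of 19 genes of cell cycle transcription, 3 were called higher and 0 lower at d4 against d1, where 8.32% of features were called higher and 2.26% lower. Because there were so few, the 3 are named after their values were seen. Foxm1, the activator of mitotic genes, was at 31.5 CPM at d4 and 11.2 CPM at d1 (2.82-fold, 1.96 to 4.15). Mybl2, which encodes B-Myb, was at 12.1 CPM at d4 and 4.03 CPM at d1 (3.01-fold, 1.65 to 5.93). The third was E2f2, at 43 UMIs at d4 and 11 at d1. Foxm1 and Mybl2 were both called lower at d7 against d4 and at d14 against d7. Of the 19 in all, 4 were called lower at d7 against d4, where 4.55% of features were. At d14 against d7, 9 of the 19 were called lower and 1 higher, where 6.35% and 6.07% of features were. E2f1, an activator of replication genes, was not called at d4 against d1 (ratio 0.821, 0.655 to 1.03), with levels of 40.6 CPM on d1, 33.4 on d4, 19.8 on d7 and 3.95 on d14. Of 9 genes that restrain cyclin-dependent kinases, 7 had enough UMIs at d14 against d7, where 6.07% of features were called higher and 6.35% lower. Cdkn1a (p21) was called higher, at 92.7 CPM at d14 and 30.9 CPM at d7 (3.00-fold, 2.50 to 3.61). Cdkn2c and Pkmyt1, also named after their values were seen, were called lower. Of 6 G1 cyclin and kinase genes, Ccnd1, Ccnd2 and Ccnd3 among them, 0 were called at d4 against d1.

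Markers of other cells also differed between the sections. A fibroblast list of 10 genes summed to 2278 CPM on d1, 5008 on d4, 5124 on d7 and 7335 on d14. Its higher sum at d14 than at d7 rested largely on Gsn, at 269 CPM on d7 and 2475 on d14. Over the same step Dcn went from 625 to 784 CPM, Col3a1 from 2420 to 2303 and Col1a1 from 882 to 688. Of the 10 genes, 6 were higher and 4 lower at d14 than at d7. A macrophage list of 10 genes summed to 443, 356, 405 and 880 CPM on d1, d4, d7 and d14. On these days a neutrophil list of 6 genes summed to 226, 35.1, 20.5 and 47.2 CPM. An atrial list of 6 genes summed to 1467, 6934, 582 and 2613 CPM. That atrial sum was mostly 1 gene, Nppa, with 4364 of 4730 UMIs on d1, 39471 of 40537 on d4, 2749 of 3243 on d7 and 10952 of 11250 on d14. The cardiomyocyte list summed to 75862, 62427, 75999 and 90995 CPM. The cardiomyocyte and macrophage lists were both lowest at d4. The sum of an epicardial list of 8 genes had the same order of days as the mitotic genes. It was at 95.5 CPM on d1 (308 UMIs), 164 on d4 (958 UMIs), 105 on d7 (585 UMIs) and 62.5 on d14 (269 UMIs), with all 8 genes detected in every section. The ratios of the sum were 1.72 at d4 against d1 (1.51 to 1.96), 0.641 at d7 against d4 (0.577 to 0.711) and 0.595 at d14 against d7 (0.513 to 0.688). At d7 against d1 its interval included 1 (1.10, 0.956 to 1.27). Not each gene had this order. Aldh1a2 (35.4, 60.0, 46.7 and 12.8 CPM) and Krt18 (7.75, 36.1, 8.62 and 3.72 CPM) did. Wt1 (15.2, 18.3, 14.4 and 10.2 CPM) did not, and Msln (14.6, 10.8, 11.1 and 13.5 CPM) was lowest at d4. At d7 against d1, 4 of the 8 genes were higher and 4 lower. An erythroid list of 8 genes, haemoglobin genes among them, summed to 1261 CPM on d1, 3577 on d4, 9522 on d7 and 7337 on d14. Endothelial and mural lists ranged from 2386 to 3184 CPM and from 1148 to 1685 CPM over the sections. The part of these differences in the mitotic levels was not tested.

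Mitotic RNA was spread widely over the spots. A spot held a median of 3 mitotic UMIs on d1, 12 on d4, 6 on d7 and 0 on d14. After each spot was thinned at random to 2500 UMIs, which left out 40, 3, 3 and 131 shallower spots on d1, d4, d7 and d14, 67.7% of spots had at least 1 mitotic UMI on d1 (62.9 to 72.2%), 97.1% on d4 (95.5 to 98.3%), 84.8% on d7 (82.1 to 87.3%) and 28.4% on d14 (25.7 to 31.3%). Without thinning the shares were 83.6%, 99.5%, 98.7% and 39.5%. UMIs of at least 2 different mitotic genes were found in 36.5% of thinned spots on d1, 84.7% on d4, 57.2% on d7 and 5.17% on d14. At least 5 different ones were found in 1.73% of spots on d1, 29.3% on d4 and 7.52% on d7, and in 0 of 1044 spots on d14.

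**Figure D4:**
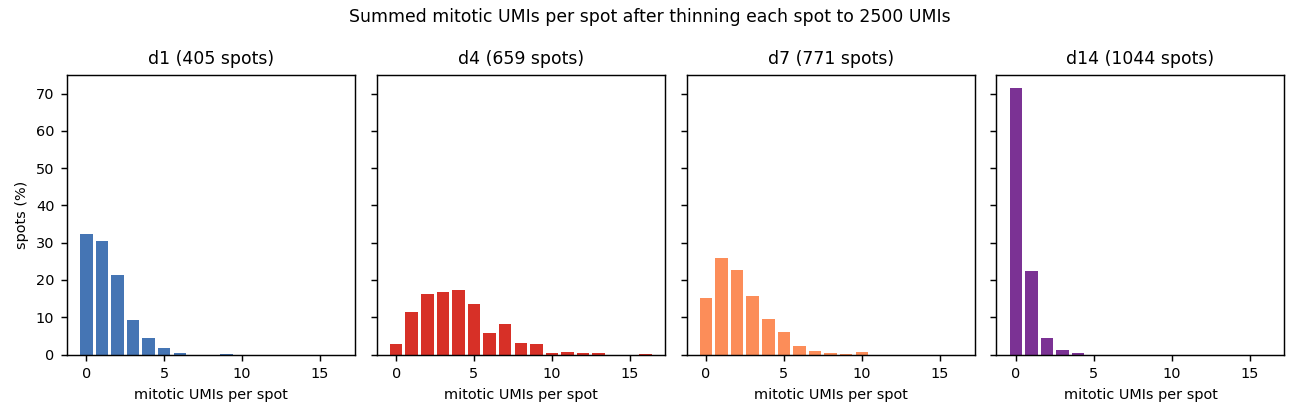
Share of spots (%) by number of summed mitotic UMIs per spot, after each spot was thinned to 2500 UMIs, in the sections of d1, d4, d7 and d14 from left to right. At d14 most spots are at 0, and at d4 the counts reach 16 in a spot.

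The summed mitotic UMIs varied between spots more than counting would give. Their index of dispersion around the level set by each spot's depth, which is 1 for counting alone, was 2.14 on d1, 2.50 on d4, 2.56 on d7 and 1.35 on d14, and 1.34, 1.46, 1.497 and 1.19 after thinning. Expressed as a coefficient of variation beyond counting, the thinned spots differed by 50.5% on d1, 34.3% on d4, 47.4% on d7 and 72.8% on d14. These percentages have no interval, and that of d14 rests on a mean of 0.363 mitotic UMIs per thinned spot, so the sections are not ranked by them. The top 10% of spots by mitotic UMIs held 29.7% of them on d1, 26.3% on d4, 25.8% on d7 and 45.3% on d14, where depth also differs between spots. Because the spots were ranked by these same counts, shares above 10% follow in part from counting alone. This weighs most at d14, with a mean of 0.583 mitotic UMIs per spot, so these shares do not rank the sections. Single members were sparser: at d4 the index of the 34 was lowest for Plk1 (0.939) and highest for Mki67, with a median of 1.08.

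To see where in a section the mitotic RNA lay, spots were clustered within each section on genes that exclude the cell cycle lists. The cluster with the largest share of UMIs from a list of 18 injury genes (genes of matrix and of myeloid cells, among them Postn, Fn1, Lyz2 and Spp1) is called the injury-list-rich region. It is a set of spots of like expression and not a mapped place, and it held 39, 48, 54 and 117 spots at d1, d4, d7 and d14. The genes that made up the list differed by day. Over whole sections Spp1 had 1205, 19, 5 and 16 UMIs, and Postn 779, 6210, 4968 and 1087. The regions of different days need therefore not be alike. At d1 the mitotic genes were at 1005 CPM in the region and 526 CPM in the rest of the section (1.91-fold, 1.66 to 2.19). At d4 they were at 1955 CPM in the region and 1717 CPM in the rest (1.14-fold, 1.07 to 1.21). At d7 they were at 1043 CPM in the region and 972 CPM in the rest (1.07-fold, 0.964 to 1.19), a difference that counting error can cover. At d14 they were at 308 CPM in the region and 141 CPM in the rest (2.18-fold, 1.80 to 2.63).

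The excess in the region was therefore larger in the 2 sections with lower mitotic levels, d1 and d14, whose intervals did not overlap those of d4 and d7. The replication list was at 0.914 times the rest in the region on d1 (0.818 to 1.02), at 1.02 times on d4 and on d7, and at 1.34 times on d14 (1.16 to 1.54). At d1, 8 of 29 members with enough UMIs were called higher in the region, where 10.3% of 10017 features were. They were Mki67, Aurkb, Plk1, Birc5, Cdc20, Kif20a, Ube2c and Hmmr, and Ube2c was at 102 CPM in the region and 28.1 CPM in the rest (3.64-fold, 2.21 to 5.79). At d4, 0 of 34 members were called higher in the region, where 11.6% of features were, and the interval lay above 1 for 7 of them. At d7, Cenpf and Nusap1 were called, 2 of 34, where 11.8% of features were. At d14, 9 members had enough UMIs and 3 were called higher (Cdk1, Ube2c and Incenp), where 10.2% of features were.

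At d14 Cenpa was 1.05-fold in the region against the rest (0.643 to 1.65) and Cenpf 0.865-fold (0.335 to 1.88), so that both intervals included 1. The other 32 genes in sum were 3.12-fold higher there (2.50 to 3.89), at 246 CPM in the region and 78.6 CPM in the rest. That sum does not describe each gene: of the 34 members 29 had a ratio above 1 there, only 10 had an interval above 1, and Ccnb1, Pbk and Bub1 had 0 UMIs in the region. At d7 Cenpa was lower in the region, at 74.7 CPM, than in the rest, at 113 CPM (ratio 0.662, 0.432 to 0.973).

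Cell type markers differed between the region and the rest too. Because the region was chosen by matrix and myeloid genes, higher macrophage and fibroblast lists there follow in part from that choice. Lyz2, for one, is in both the injury list and the macrophage list. The macrophage list was 11.5-fold higher in the region than in the rest on d1, 7.37-fold on d4, 4.70-fold on d7 and 2.69-fold on d14, and the fibroblast list 2.80-fold, 4.01-fold, 5.45-fold and 2.59-fold. The cardiomyocyte list was at 0.609, 0.371, 0.409 and 0.645 times the rest. The epicardial list was 1.85-fold, 2.95-fold, 2.09-fold and 4.37-fold higher in the region. The atrial list, mostly Nppa in each section as a whole, was also higher there, at 2.28-fold, 2.80-fold, 11.9-fold and 5.68-fold. At d7 a skeletal muscle list had 150 of its 190 UMIs in the region. The erythroid list was at 1.10, 0.874, 4.69 and 3.18 times the rest on d1, d4, d7 and d14. For the neutrophil list these ratios were 5.12, 0.480, 0.943 and 3.08. The part of these cells in the mitotic levels of the region was not tested.

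Between all clusters of a section, the highest mitotic level was 2.65 times the lowest on d1, 1.59 times on d4, 1.31 times on d7 and 2.48 times on d14. The injury-list-rich region had the highest value at d1, d7 and d14, but in all 4 sections the interval of the highest cluster overlapped that of the next. At d7 the region was at 1043 CPM (941 to 1154) and the next cluster at 1036 CPM (986 to 1088), and with the 10% of spots richest in injury list UMIs as the region, the log2 ratio to the rest was -0.054 (-0.20 to 0.09). At d4 a cluster of 33 spots was higher, at 2097 CPM, with a median depth of 18269 UMIs. In it the atrial list, mostly Nppa over the d4 section, was at 27969 CPM. At d1 the lowest cluster, of 126 spots at 379 CPM, had 82581 CPM of the cardiomyocyte list and 1402 CPM of the fibroblast list, where the region had 47584 and 5639 CPM.

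**Figure D5:**
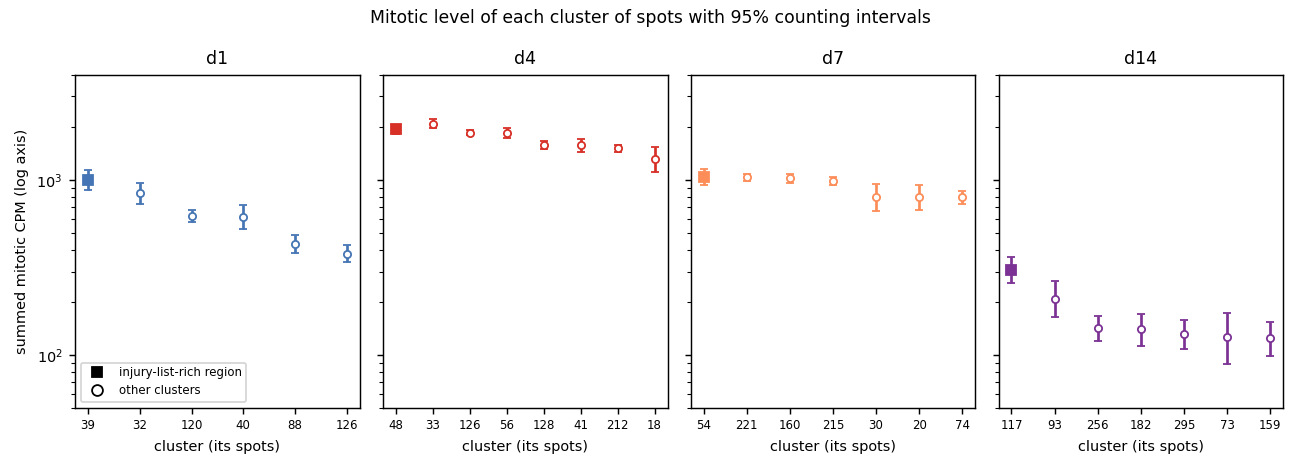
Summed mitotic CPM (log axis) of each cluster of spots in each section, with 95% counting intervals and the number of spots of each cluster under the axis. The filled square, leftmost in each panel, is the injury-list-rich region, and open circles are the other clusters from high to low. The region has the highest value at d1, d7 and d14, with an interval that overlaps that of the next cluster, and the clusters of d4 and d7 lie within a narrower range than those of d1 and d14.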

How the data were processed

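The data were 4 Visium sections, each deposited as a matrix of raw UMI counts per feature and spot, written by Space Ranger (version 1.3.0, per the file headers) on mm10, per the submitters' processing notes, which also name Seurat 4.1.1. How the listed spots (448, 665, 776 and 1178) were selected, and whether counting used strand, is not given in the sources used here. Array barcodes recur by design, and sections shared 248 to 754 of them.

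The members were found by symbol, and 34 of 34 were matched. Spots with at least 500 UMIs were kept and summed, and CPM was computed without haemoglobin and mitochondrial genes. CPM intervals are exact Poisson, ratios exact conditional binomial and shares of spots Clopper-Pearson, all at 95%. With 1 sample per day there is no test. The same rule of size (at least 20 UMIs, 2-fold, interval excluding 1) was run over all features and tested on simulated counts. Spots were clustered in scanpy 1.11.5 (2000 variable genes, 15 components, 15 neighbours, Leiden resolution 0.8, igraph 0.11.9) without 169 cell cycle genes. Gene coordinates and overlaps are from GENCODE vM21, the same build as mm10. Other tools were numpy 2.4.6, scipy 1.17.1, pandas 2.3.3, and edgeR 4.0.16 in R 4.3.3 for TMM factors only. All members could be named, and of other lists up to 4 genes with the most UMIs. The members, the 20 lists and these rules were chosen with earlier results of these data known. Alternatives were other totals, TMM, other spot and gene minimums, means over spots, other regions, fewer members and other thinning.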

Additional observations from a re-analysis of the deposited data

How the results depend on the processing

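Of 133 values compared under alternatives, 100 stayed within counting error or 1.5 times the count, 33 moved further, and 0 of those called changed sign. With TMM scaling the summed log2 ratio was 1.45 at d4 against d1 and -0.62 at d7 against d4, with 0 members lower at d7. With CPM over all genes it was -0.94 at d7 against d4, with 17 members lower, and 0.69 at d7 against d1. Without the injury-list-rich region it was 1.71 at d4 against d1, -2.78 at d14 against d7 and 0.89 at d7 against d1. As a mean over spots it was -0.77 at d7 against d4 and 0.89 at d7 against d1. Without Cenpa and Ube2c, the 2 members with the most UMIs, it was 1.54 at d4 against d1, -2.90 at d14 against d7 and 0.69 at d7 against d1, and without Cenpa and Cenpf, an alternative added after the data were seen, -3.13 at d14 against d7. With a minimum of 20 CPM in 1 section, 5 of 28 members were lower at d7 against d4, 17 of 18 were lower at d14 against d7 and 7 of 18 were higher at d7 against d1. Thinned to 1500 UMIs, the share of spots with a mitotic UMI was 52.5% on d1, 88.4% on d4, 69.5% on d7 and 18.8% on d14, and unthinned 83.6%, 99.5%, 98.7% and 39.5%. The index of dispersion thinned to 2500 UMIs was 1.34, 1.46, 1.497 and 1.19, and outside the region 1.81 at d1 and 1.21 at d14. With the 10% of spots richest in injury list UMIs as the region, the log2 ratio at d7 was -0.054, which turned the direction of the 1.07-fold ratio, whose interval had included 1. The count of members in the order d4, d7, d1 and d14 was 31 with CPM over all genes, where Kif11 was lower at d7 than at d1, and 32 under TMM, other spot minimums and without the region. No paired analysis was possible because each day had 1 section. At d14, where single members rest on 0 to 195 UMIs, depth limits what the ratios can show.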
